A study of Mus musculus with 4 samples.

Results

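Endogenous-only peaks are the ChIP-exo peaks of endogenous Sox2 in D3 mouse embryonic stem cells that had no peak of a HaloTag-Sox2 fusion beside them. The peaks were selected on the called positions of the 4 lists: a peak was counted as endogenous-only when no peak centre of the Halo-Sox2, Halo-Sox2M or Halo-Sox2D list lay within 500 bp of its own centre. Mitochondrial, unplaced and random sequence had been set aside, together with 11 bins of 100 kb that held 15 or more peaks in any list. There were 3278 such peaks among the 6364 endogenous Sox2 peaks that remained, or 51.5% (95% Wilson interval 50.3 to 52.7), and the whole series holds 29255 peaks. The other 3086 endogenous peaks, with a Halo centre within 500 bp, served for comparison. Of the endogenous-only peaks, 2189 were lone, with no other endogenous centre within 500 bp, and 1089 were paired, with at least 1.

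The study mapped Sox2 by ChIP-exo in 4 libraries, 1 for each form of the protein, all from the D3 line under routine culture. Endogenous Sox2 was taken with an anti-Sox2 antibody. The fusions were taken on HaloLink resin, which holds the HaloTag protein tag covalently. Halo-Sox2 is labelled with no change, Halo-Sox2M carries changes given as M47G:F50:M51G (with no new residue named for F50), and Halo-Sox2D has residues 1 to 120 of Sox2 alone. The endogenous list held 7153 peaks, and the Halo-Sox2, Halo-Sox2M and Halo-Sox2D lists held 6558, 1711 and 13833, with a median width of 11 bp in each. Antibody and resin, the tag and its protein level go together in this design and cannot be told apart. Peak positions hold no expression values, so the cell type could not be checked against its markers. With 1 library per form there was no replicate check and no test between forms. The lists carry no height or score and their read depth is unknown, so a peak missing from a Halo list means that none was called there, not that the fusion was absent. The Wilson and Newcombe intervals given below are at 95% and cover counting error only; paired peaks share DNA, so these intervals are too narrow for them.

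Sox2 is a transcription factor whose HMG box binds the minor groove of short sites such as CATTGT and CTTTGT and bends the DNA. In embryonic stem cells it often binds beside Oct4, the product of Pou5f1, whose POU domain reads the octamer ATGCAAAT, and the joint site has the Sox core and the octamer separated by at most a few bases. The partners hold up the genes of the pluripotent state, among them Sox2, Pou5f1 and Nanog themselves. In ChIP-exo an exonuclease trims the captured DNA back to the crosslinked protein, so that 1 bound site can leave several closely spaced borders.

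The sequence under the peaks could be read where a peak fell in a promoter window of the RefSeq table (GRCm38.p6, from 250 bases before to 50 after a start site). Of 53 endogenous-only windows of 51 bases that fitted there, 15 held the Sox core, the octamer or a joint site, and 38 held none. Near a Halo centre 24 of 57 such windows held one. The 51 bases centred on 9 endogenous-only peaks are shown because they hold such a match. The windows of 2 endogenous peaks near a Halo centre follow for comparison. The printed windows were chosen after the sequences were seen, as were the names of their genes apart from Nr5a2 and Nanog. Each is written 5′ to 3′ on the strand of its gene, with the matched letters in capitals, and a core on the opposite strand appears as ACAATG or ACAAAG. The strict joint site (CATTGT, any base, then ATGCAAA) was not marked as such. The Nanog window holds it on the opposite strand, with its octamer part in the small letters just before ACAATG.
Fam169a, chr13:97067187-97067237, plus strand, paired: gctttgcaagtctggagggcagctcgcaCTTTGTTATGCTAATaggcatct
Bcat1, chr6:145048877-145048927, minus strand, lone: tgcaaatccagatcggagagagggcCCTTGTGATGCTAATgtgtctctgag
Shroom3, chr5:92897854-92897904, plus strand, lone: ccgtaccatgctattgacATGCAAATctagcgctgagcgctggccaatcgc
Nr5a2, chr1:136953796-136953846, minus strand, lone: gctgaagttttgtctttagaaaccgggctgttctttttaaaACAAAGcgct
Dll1, chr17:15377035-15377085, minus strand, lone: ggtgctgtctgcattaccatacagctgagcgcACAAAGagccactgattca
Coq10a, chr10:128370198-128370248, minus strand, lone: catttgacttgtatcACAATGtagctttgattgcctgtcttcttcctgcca
Selenok, chr14:29968239-29968289, plus strand, lone: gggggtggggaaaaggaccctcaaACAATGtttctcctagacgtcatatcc
Atp5g3, chr2:73911386-73911436, minus strand, paired: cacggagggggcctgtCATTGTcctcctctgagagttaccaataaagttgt
Atp5g3, chr2:73911347-73911397, minus strand, paired: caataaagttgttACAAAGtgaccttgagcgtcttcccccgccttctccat
Nanog, chr6:122707391-122707441, plus strand, near a Halo centre: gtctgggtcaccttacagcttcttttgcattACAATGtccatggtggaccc
Zfp428, chr7:24506981-24507031, plus strand, near a Halo centre: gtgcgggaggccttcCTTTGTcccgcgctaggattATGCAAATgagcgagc

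The windows at Fam169a and at Bcat1, which encodes a branched-chain amino acid transaminase, both fit a relaxed joint site, a Sox-like core (CNTTGT) followed after 1 base by an octamer-like stretch (ATGC, any base, AAT). The window at Shroom3, an actin-binding regulator of cell shape, held the exact octamer with its peak centre at -114 bases from the start site. Nr5a2 encodes a nuclear receptor that can activate Pou5f1, and its peak was centred at -191 bases from an internal start site. Dll1 encodes a Notch ligand, and its peak was centred at -128 bases from the start. At Atp5g3, which encodes a subunit of mitochondrial ATP synthase, neighbouring peaks centred at -85 and -46 bases from the start each had a core of their own, CATTGT at the first and CTTTGT at the second.

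Endogenous-only peaks stood alone far more often than the endogenous peaks beside a Halo centre. Lone peaks made up 66.8% of the 3278 endogenous-only peaks (65.1 to 68.4), against 37.0% of the 3086 near a Halo centre (35.3 to 38.7), a difference of 29.8 percentage points (27.4 to 32.1). Endogenous peaks near a Halo-Sox2D centre and no other Halo centre lay between, with 43.6% lone (40.7 to 46.5). Peaks found in 1 Halo list alone were counted as lone when no other centre of their own list lay within 500 bp. By that measure 90.4% of 3697 Halo-Sox2-only and 86.3% of 10922 Halo-Sox2D-only peaks were lone. Joined at 500 bp, the endogenous-only centres formed 2196 groups of 1, 342 of 2, 93 of 3 and 21 of 4. A further 2 groups held 5 centres, 3 held 6 and 1 held 7. The groups of 1 exceed the lone peaks by 7, which are paired peaks whose partner lay near a Halo centre. The shares above count peaks, so a group enters once for each of its centres. Groups were not formed for the peaks near a Halo centre. Gaps of at most 500 bp numbered 1232 among those 3086 peaks and 620 among the 3278 endogenous-only peaks. By these counts the lone share of groups would also be higher for endogenous-only peaks, but by less than 29.8 points. The rule bears on this too, since 1 Halo centre can take several neighbouring peaks out of the class at once.

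**Figure D1:**
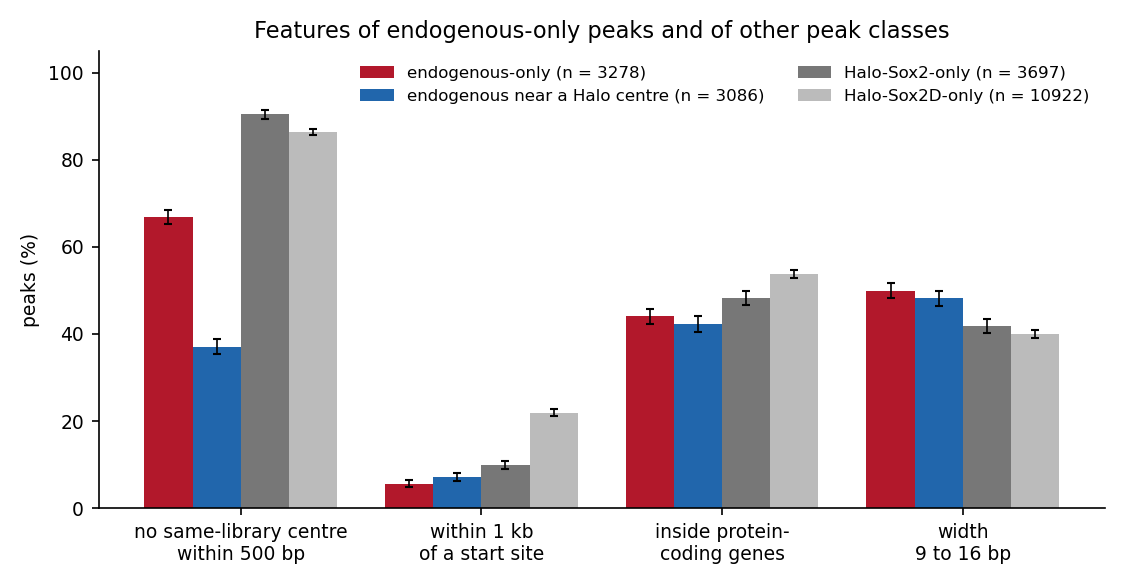
Percentage of peaks in each class (y axis) that were lone, within 1 kb of a start site or inside protein-coding genes. The last set shows peaks 9 to 16 bp wide. Lone means no other centre of the same list within 500 bp. Bars carry 95% Wilson intervals. Endogenous-only peaks were lone in 66.8%, against 37.0% near a Halo centre. Within 1 kb of a start site were 5.61% of endogenous-only peaks, 7.10% of those near a Halo centre and 21.9% of Halo-Sox2D-only peaks.

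Where endogenous-only peaks did come in company, their median spacing lay within the counting interval of that of the other endogenous peaks. Neighbouring centres were a median of 35.5 bp apart (95% interval of the median 32 to 38.5, interquartile range 22 to 57.5, 620 gaps), against 36.5 bp near a Halo centre (34 to 38.5, 1232 gaps). Gaps of 16 to 50 bp made up 59.4% of those between endogenous-only peaks and 58.9% of those near a Halo centre. Gaps over 100 bp made up 9.84% and 14.1% in the same order. Halo-Sox2-only peaks had a wider median spacing of 54 bp (43.5 to 69.5, 182 gaps). In 44 neighbouring pairs the endogenous-only peaks overlapped, and in all 44 the 2 intervals shared an edge. The same was seen in 68 of 68 overlapping pairs near a Halo centre.

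**Figure D2:**
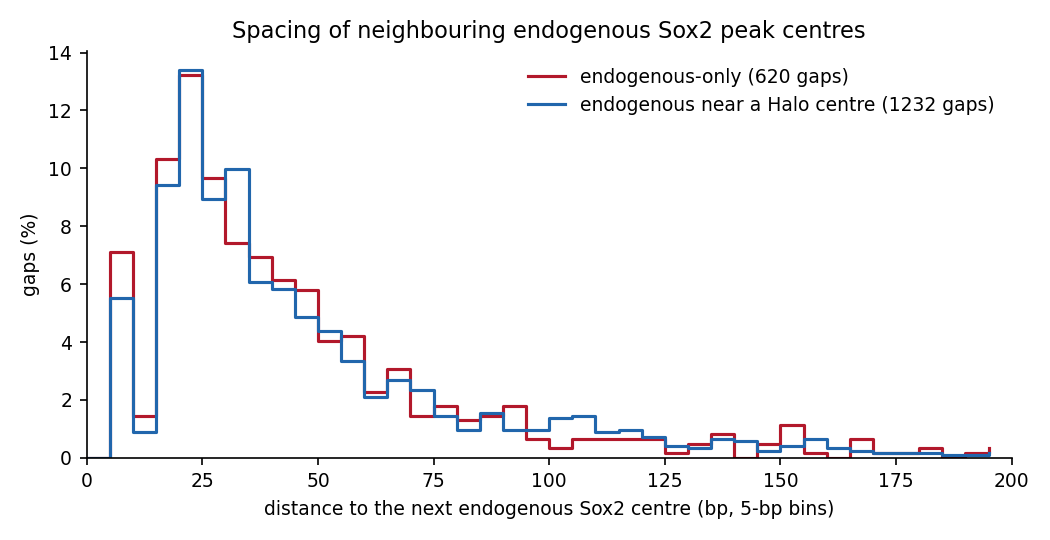
Distribution of distances between neighbouring endogenous Sox2 centres (x axis, bp, in 5-bp bins; y axis, percent of gaps) for endogenous-only peaks and for peaks near a Halo centre. Both curves are highest at 20 to 25 bp, and the medians are 35.5 and 36.5 bp.

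The called intervals were also alike in width. The median was 12 bp in endogenous-only peaks and 11 bp near a Halo centre. Widths of 9 to 16 bp were found in 49.9% of endogenous-only peaks (48.2 to 51.6) and 48.2% of those near a Halo centre (46.4 to 49.9), against 41.7% of Halo-Sox2-only and 40.1% of Halo-Sox2D-only peaks. Intervals of at most 3 bp were 10.1% of endogenous-only peaks and 12.0% near a Halo centre, a difference of -1.89 points (-3.44 to -0.35).

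Few endogenous-only peaks had their nearest Halo centre just past the limit, in a narrow range of distance. The nearest one lay a median of 22.2 kb from an endogenous-only peak (interquartile range 6.29 to 69.96 kb). It was between 500 bp and 1 kb away for 182 peaks (5.55%), between 1 and 5 kb for 521, between 5 and 50 kb for 1539, between 50 and 500 kb for 953 and farther for 83. These ranges differ in width, and per kb of distance the first held the most peaks. The nearest centre belonged to Halo-Sox2D, the longest list, for 67.7% of the peaks. Paired peaks had their nearest Halo centre at a median of 17.7 kb and lone peaks at 24.3 kb. An endogenous peak near a Halo centre lay within 10 kb of 7.41% of the endogenous-only peaks and within 50 kb of 18.2%. The endogenous-only peaks with the closest Halo centres were nearest to the genes Mtf1 at 500.5 bp, Inhbb and Spry4 at 508.5 bp, Fam81a at 509 bp and Gpx4 at 510.5 bp. Of the endogenous peaks counted as near a Halo centre, those closest to the limit were nearest to the genes Sox2 at 500 bp, Pakap at 499.5 bp, Vmn1r238 at 498 bp, Rad51b at 497 bp and Zwint at 493.5 bp.

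Endogenous-only peaks lay mostly away from promoters. Within 1 kb of a RefSeq start site were 5.61% of endogenous-only peaks (4.88 to 6.45) and 7.10% of those near a Halo centre (6.24 to 8.06), a difference of -1.48 points (-2.69 to -0.28). Among lone peaks the shares were 6.12% and 9.89% in the same order, a difference of -3.77 points (-5.86 to -1.84). Endogenous peaks near a Halo-Sox2D centre and no other stood at 9.81% and Halo-Sox2D-only peaks at 21.9%. Endogenous peaks near a Halo-Sox2 centre stood at 5.69%, beside the endogenous-only value. More than 50 kb from any start site were 29.0% of endogenous-only peaks and 28.1% near a Halo centre. At most 1 kb from an end of a protein-coding gene were 7.05% of endogenous-only peaks and 6.48% near a Halo centre (difference 0.57 points, -0.67 to 1.80). That difference was 1.76 points (0.43 to 3.00) with the Halo-Sox2 list alone as the comparison and 1.38 points (0.22 to 2.55) with no bin left out. Inside protein-coding genes were 44.1% of endogenous-only peaks and 42.3% of those near a Halo centre.

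Lone endogenous-only peaks had higher shares in and near genes than paired ones. Paired peaks of a group share their place, so the intervals below are too narrow. Lone peaks fell inside protein-coding genes in 46.2% and paired peaks in 39.8%, a difference of 6.42 points (2.82 to 9.97). Within 1 kb of a gene end were 7.86% of lone and 5.42% of paired peaks, a difference of 2.44 points (0.60 to 4.13). Near a Halo centre, lone and paired peaks fell inside genes in 42.3% and 42.2%, and within 1 kb of a gene end in 9.46% and 4.73%, a gap in the same direction as among endogenous-only peaks.

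Chromosome X held a larger share of endogenous-only peaks than of the rest, though not beyond counting error within lone or within paired peaks. Of its 79 endogenous peaks 55 were endogenous-only, or 69.6% (58.8 to 78.7), while the autosomes ran from 44.8% on chromosome 10 to 60.8% on chromosome 9. X peaks were 1.68% of endogenous-only peaks and 0.778% of those near a Halo centre, a difference of 0.90 points (0.36 to 1.46). Among lone peaks alone the difference was 0.74 points (-0.25 to 1.60) and among paired peaks 0.46 points (-0.13 to 1.25), and both intervals include 0. X peaks were 2.14% of Halo-Sox2-only and 0.824% of Halo-Sox2D-only peaks. Of the 55, 45 were lone and 10 paired.

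Genes were assigned an endogenous-only peak when one lay in the body or within 50 kb of it. By this measure 21 of 40 pluripotency genes had at least 1 (52.5%, 37.5 to 67.1), while 18.2% of all 21883 protein-coding genes did. An endogenous peak near a Halo centre was assigned to 25 of the 40, against 13.1% of all genes. The signalling list had an endogenous-only peak at 12 of 30 genes, the chromatin regulators at 14 of 30, the trophoblast genes at 7 of 14 and the neural genes at 10 of 30. Housekeeping genes had one at 6 of 20, mesendoderm genes at 3 of 20 and genes of other tissues at 1 of 20. The same lists had a peak near a Halo centre at 15 signalling, 11 chromatin, 2 trophoblast, 6 neural and 2 housekeeping genes. The mesendoderm list had one at 0 of 20, which allows a share of up to 15% if a count of 0 is taken to allow 3 (Wilson upper limit 16.1%). A paired endogenous-only peak was assigned to 9 pluripotency genes, with 3.49% of all genes as background. Of the 73 list genes with an endogenous-only peak, 43 had no endogenous peak near a Halo centre in the same window (58.9%, 47.4 to 69.5). Of the 3975 protein-coding genes with an endogenous-only peak, 3101 had none (78.0%, or 14.2% of all protein-coding genes), so the list genes had a peak of both kinds more often than genes at large. Gene length was not matched in these counts, and long genes offer wider windows.

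**Figure D3:**
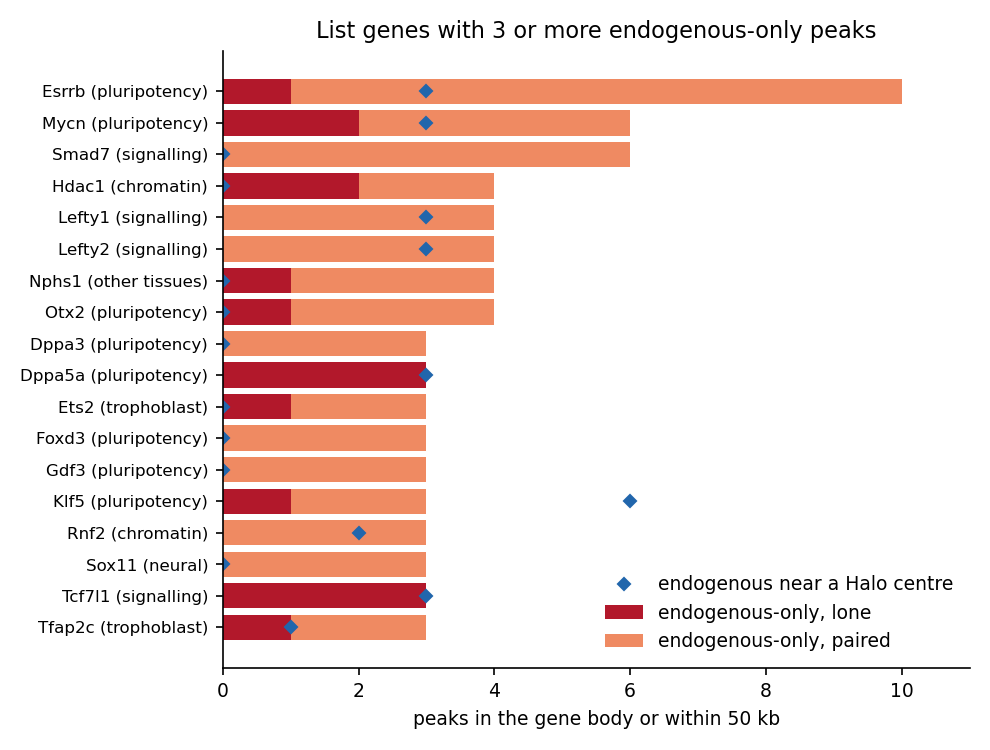
Number of endogenous-only peaks (x axis; lone and paired stacked) in the body or within 50 kb of each of the 18 list genes with 3 or more, and of endogenous peaks near a Halo centre (diamonds). Esrrb has 10 endogenous-only peaks and 3 near a Halo centre; Klf5 has 3 and 6.

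The endogenous peaks at the core genes themselves were mainly near a Halo centre, which means a centre within 500 bp and not an overlap. Sox2 had 1 endogenous-only peak, lone and 7.28 kb upstream, and 3 endogenous peaks near a Halo centre. Pou5f1 had 0 endogenous-only peaks and 10 near a Halo centre. Nanog had 0 and 4 in the same order, and 3 of its peaks lay in the 250 bases before its start.

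Esrrb, an orphan nuclear receptor that supports self-renewal, had the most endogenous-only peaks of any list gene. It held 10, of which 9 were paired and all lay inside the gene, with 3 further peaks near a Halo centre. A triplet spanned chr12:86498994-86499052, with its closest Halo centre 5.45 kb away. A group of 6 spanned 386 bp at chr12:86501716-86502101, with its closest Halo centre, of Halo-Sox2D, 2.40 kb away. The 3 peaks near a Halo centre lay 110 kb from the lower end of the gene, beside the only 2 Halo-Sox2 peaks of the window, while the group of 6 began 141 kb from that end.

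**Figure D4:**
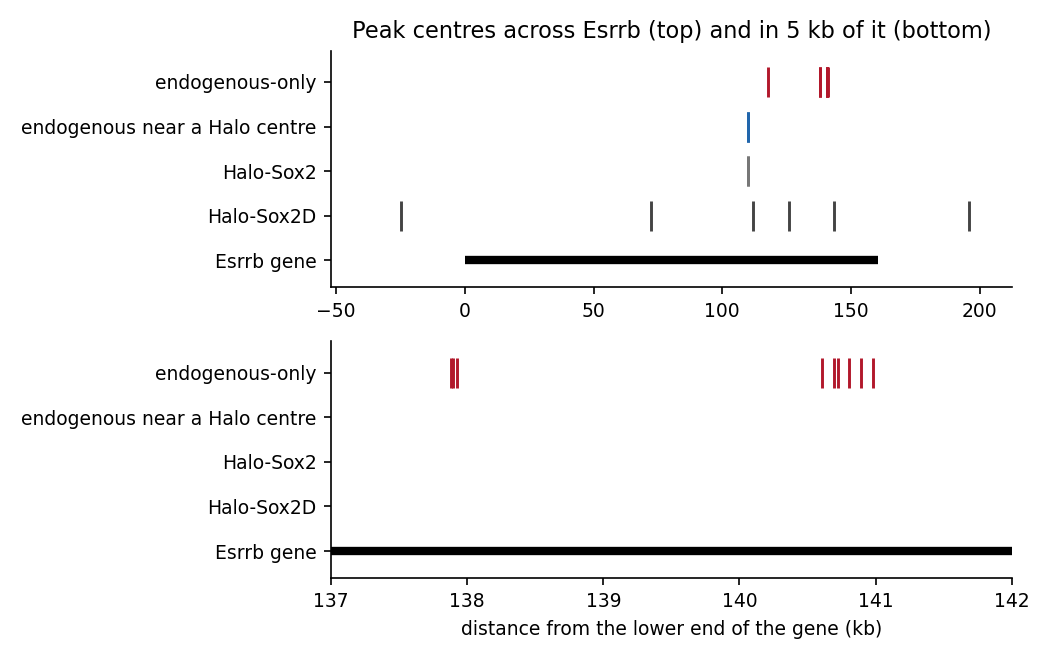
Positions of peak centres along Esrrb (x axis, kb from the lower end of the gene; ticks, peaks; rows, endogenous-only peaks, endogenous peaks near a Halo centre, Halo-Sox2 and Halo-Sox2D), across the gene with 50 kb on each side and in a 5-kb stretch of it. The triplet and the group of 6 endogenous-only peaks in the lower panel have no Halo centre in that stretch.

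Mycn, a Myc family factor, had 6 endogenous-only peaks and 3 near a Halo centre. A quartet of paired peaks stood 1.58 to 1.80 kb upstream of it at chr12:12943413-12943638, with the nearest Halo centre 4.82 kb away, and lone peaks lay 45.7 kb upstream and 31.2 kb downstream. Otx2, a homeobox factor of the primed pluripotent state and of the anterior brain, had 4 endogenous-only peaks and 0 near a Halo centre. A triplet of these stood 33.4 to 33.5 kb upstream, about 38.0 kb from a Halo centre. Foxd3, a forkhead factor needed to keep the pluripotent cells, had a triplet 20.1 to 20.2 kb upstream and 0 peaks near a Halo centre. The neighbours Dppa3 and Gdf3, a maternal chromatin factor and a ligand of the Nodal family, shared a triplet 1.74 to 1.81 kb outside Dppa3. Dppa5a, which encodes a germ-line and stem cell RNA-binding protein, had 3 lone peaks. The closest stood 0.654 kb from the gene and 0.76 kb from a Halo centre. Klf5, a zinc-finger factor of the naive state, had 3 endogenous-only peaks 39.9 to 40.9 kb from the gene and 6 near a Halo centre. Nr5a2 had 2 lone peaks and 0 near a Halo centre, with the nearest Halo centres 141 and 154 kb away; its promoter sequence is among those printed above.

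Among signalling genes Smad7, an inhibitory Smad that damps TGF-beta signalling, had 6 endogenous-only peaks, all paired, and 0 near a Halo centre. Of the 6, 4 stood 6.25 to 6.34 kb outside the gene, with the nearest Halo centre 19.9 kb away. The Nodal antagonists Lefty1 and Lefty2 are neighbours and shared 4 paired endogenous-only peaks, a pair 1.13 to 1.15 kb from Lefty1 and a pair 10.1 to 10.2 kb from it. Tcf7l1, the Wnt pathway repressor, had 3 lone peaks, 2 inside the gene and 1 at 5.84 kb upstream, with 3 near a Halo centre. Etv4, an ETS factor downstream of FGF, had 2 lone peaks 0.772 and 1.46 kb from the gene. Their nearest Halo centres were only 0.83 and 1.51 kb away. In this group the peaks of Smad7, Lefty1 and Lefty2 were all paired, and those of Tcf7l1 and Etv4 were all lone.

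Chromatin, trophoblast and neural genes gave similar small groups. Hdac1, a histone deacetylase, had 4 endogenous-only peaks and 0 near a Halo centre. Of these, a pair stood 1.61 to 1.64 kb outside the gene, and lone peaks stood 21.2 and 25.3 kb from it. The farthest one was centred at -36 bases from the start site of a different gene. Rnf2, the ubiquitin ligase of Polycomb complex PRC1, had a triplet with its nearest peak 14.9 kb upstream. Cbx7, a PRC1 subunit that reads methylated histone H3, had 2 lone peaks, 1 of them inside the gene. Ets2 and Tfap2c, factors of the trophoblast lineage, had 3 each. Sox11, a Sox factor of neural progenitors, had a triplet 13.3 to 13.4 kb downstream, in which 2 of the intervals overlapped and shared an edge. The Halo centre nearest to the triplet was 129 kb away. No Halo centre of any list lay in the window of Sox11. That was so for 5 of the 73 list genes with an endogenous-only peak, a housekeeping gene among them. The share over all protein-coding genes was not taken, so the 5 cannot be judged against it. Nphs1, the kidney slit-diaphragm gene on the list for other tissues, had 4, of which 3 were paired and inside the gene.

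Over all protein-coding genes the most endogenous-only peaks fell to Ppp1r9a, a neuronal actin-binding scaffold, with 11, all inside the gene. Esrrb followed with 10, 2700049A03Rik with 9 and Tbl1xr1, a subunit of the NCoR corepressor complex, with 8. Arhgap26 had 7, as did Dact1, a modulator of Wnt signalling, and Gfm2, a mitochondrial elongation factor. Aldh1b1, a mitochondrial aldehyde dehydrogenase, Cobl, an actin nucleator, and Enc1, a Kelch-family protein, had 6 each. Several of these share peaks: all 7 of Dact1 lay inside 2700049A03Rik next to it, and all 6 of Enc1 were also within 50 kb of Gfm2.

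The group with the most centres held 7 in 142 bp inside 2700049A03Rik, at chr12:71296903-71297044. It stood 12.8 to 13.0 kb upstream of Dact1, and the nearest Halo centre was 13.4 kb away. A group of 6 centres spanned 110 bp at chr11:12467380-12467489, outside Cobl, and included an overlapping pair of intervals with a shared edge. Another 6 centres spanned 217 bp inside the gene model Gm52006. Lats2, a kinase of the Hippo pathway, held 5 centres in 224 bp, 43.1 kb from a Halo centre, and Thada held 5 in 108 bp, 3.33 kb from one. Enpp3, an ectonucleotide pyrophosphatase, held 4 in 89 bp. A group of 4 in 75 bp lay 173 kb from its nearest protein-coding gene, Brinp3, and 104 kb from a Halo centre.

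Promoter windows held 76 endogenous-only peaks at 71 genes, and 92 endogenous peaks near a Halo centre at 72 genes. Of the protein-coding genes with a window, 56 of 17491 (0.32%) had an endogenous-only peak in it. The peaks lay before the start in 67 of 76 cases, at a median of -95 bases, and near a Halo centre in 76 of 92, at -85 bases. The window reaches 250 bases before the start and only 50 after it. Peaks spread evenly in it would also lie mostly before the start, so these counts show no upstream preference. Lone peaks were 57 of the 76 and 52 of the 92.

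Motifs were searched on both strands in the 101 bases centred on a peak, where these fitted in a promoter window. This gave 60 windows at 55 genes for endogenous-only peaks and 68 windows at 54 genes for peaks near a Halo centre. A Sox core, CATTGT or CTTTGT, was present in 33.3% of endogenous-only windows (22.7 to 45.9) and 44.1% of those near a Halo centre (32.9 to 55.9), a difference of -10.8 points (-26.6 to 6.06). It was present in 16.2% of 99 Halo-Sox2-only windows, 21.2% of 950 Halo-Sox2D-only windows and 10.7% of 65630 stretches of the same length cut from all promoter windows. Against those stretches the endogenous-only share was higher by 22.6 points (12.0 to 35.2). CATTGT alone stood at 16.7% of endogenous-only windows, 23.5% near a Halo centre and 2.02% of Halo-Sox2-only windows. Mean GC content was 55.8% in endogenous-only windows and 55.4% near a Halo centre.

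The cores lay close to the peak centres. In the 20 endogenous-only windows with a core it was a median of 8 bp from the centre, and within 10 bp in 15 of them. Near a Halo centre the median was 9 bp, with 16 of 30 within 10 bp.

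The octamer was found in fewer endogenous-only windows than windows near a Halo centre, but not beyond counting error once each gene was counted a single time. ATGCAAAT was present in 1 of 60 endogenous-only windows (1.67%, 0.29 to 8.86), the Shroom3 window printed above, and in 8 of 68 near a Halo centre (11.8%, 6.08 to 21.5). The difference was -10.1 points (-19.96 to -0.94), but several of the 8 windows overlap. By gene, a count added after the data were seen, it was in 1 of 55 and 5 of 54, a difference of -7.44 points (-18.2 to 1.94). All promoter stretches held it in 0.635%. A Sox core or an octamer was found in 35% of endogenous-only windows and 54.4% near a Halo centre, a difference of -19.4 points (-35.1 to -2.15), which includes 0 when each gene is counted once (-34.3 to 1.22). The strict joint site (CATTGT, any base, then ATGCAAA), which contains the first Sox core and overlaps the octamer, was in 0 of 60 endogenous-only windows, which allows a share of up to 5% by the same 3 counts (Wilson 6.02%), and in 2 of 68 near a Halo centre. The 2 near a Halo centre are overlapping windows of neighbouring Nanog peaks and hold the same site. The relaxed joint site described above, which can overlap CTTTGT, was written down after the Fam169a and Bcat1 sequences had been seen. It was in those 2 of 60 endogenous-only windows, in 0 of 68 near a Halo centre (up to 4.41% by 3 counts, Wilson 5.35%) and in 3 of 65630 promoter stretches. The relaxed form asks for a final T that the strict form does not, so it misses the strict site at Nanog. The 2 against 0 therefore do not compare joint sites in general.

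Comparison motifs show how far these counts reach. TGTTAC, which is CATTGT written backwards, was itself present in 7 of 60 endogenous-only windows (11.7%, 5.77 to 22.2), against 1.47% near a Halo centre and 2.57% of all promoter stretches. Unlike the Sox core it lay within 10 bp of the centre in 0 of the 7, at a median of 30.5 bp. The 7 windows belong to 5 genes, and by gene the difference from peaks near a Halo centre was 7.24 points (-2.21 to 17.8). The GC box GGGCGG was in 21.7% of endogenous-only windows, 22.1% near a Halo centre and 38.1% of Halo-Sox2D-only windows. AGGTCA, read by nuclear receptors, was in 8.33% of endogenous-only windows and 4.41% near a Halo centre. A match here is a run of letters, not a shown binding site, and promoter windows hold 2.32% of the endogenous-only peaks.

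**Figure D5:**
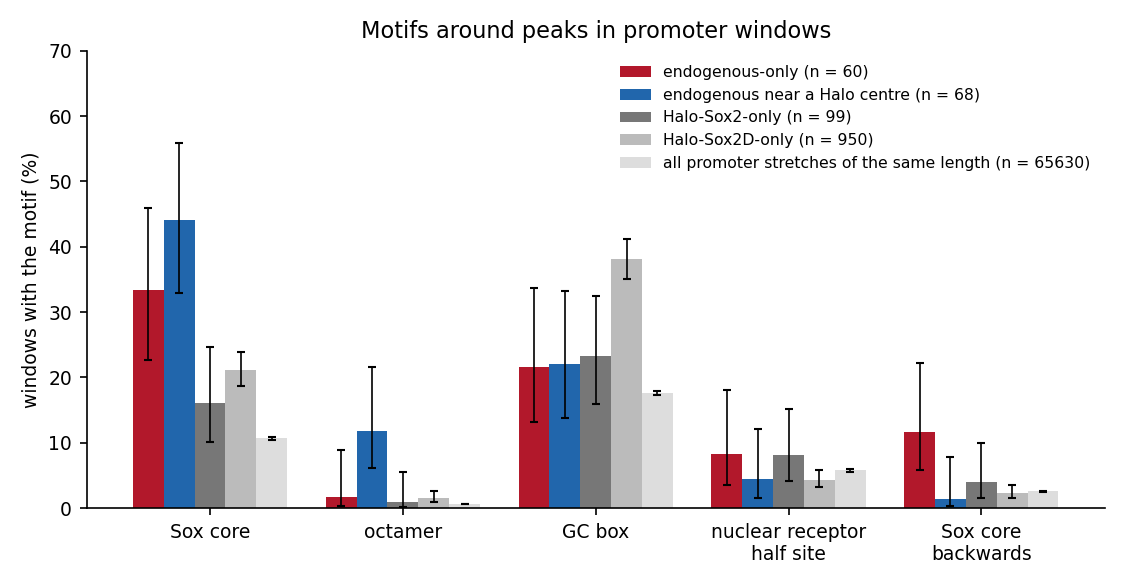
Percentage of 101-base windows around peaks in promoter windows that hold each motif (y axis; bars, peak classes and all promoter stretches; whiskers, 95% Wilson intervals). The Sox core stands at 33.3% in endogenous-only windows and the octamer at 1.67%, against 44.1% and 11.8% near a Halo centre; the backwards core stands at 11.7% and 1.47%.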

How the data were processed

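ChIP-exo was made from D3 mouse embryonic stem cells, 1 library per form of Sox2. Bowtie2 and the build mm10 are named in the submitters' processing notes. How peaks were called, and at what threshold, is not given in the sources used. For each library the authors deposited a list of chromosome, start and end, with no score, count or signal; starts were read as counted from 0 and printed with 1 added. A longer list may come from deeper reads or a looser threshold.

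Peaks were classed by the distance between centres in Python 3.11.15 with numpy 2.4.6, pandas 2.3.3 and scipy 1.17.1, and figures were drawn with matplotlib 3.10.9. Genes, start sites and promoter sequence came from RefSeq tables of GRCm38.p6, whose chromosomes share the mm10 coordinates; start sites and strands were taken from 32851 promoter windows, and a gene without one is described with no strand. All 201 genes of the 8 lists matched. Shares carry Wilson intervals and their differences Newcombe intervals. The distances and joining were tested on simulated data. The endogenous-only class, the gene lists and the dense-bin limit were chosen with earlier results of these data known, so no count here is independent support for them.

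Genes were named by rule: Sox2, Pou5f1 and Nanog; up to 20 list genes with most endogenous-only peaks; the 10 protein-coding genes with most; the gene nearest each of the 8 largest groups; list genes with a peak in the promoter window; and the 5 peaks on either side of the limit. Genes whose sequences are printed were otherwise chosen after their values were seen.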

Additional observations from a re-analysis of the deposited data

Results flagged for a closer look

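Before the endogenous-only peaks were chosen, 789 endogenous peaks were set aside with the dense bins and the mitochondrial, unplaced and random sequence. Among these, 28 had no Halo centre within 500 bp, 11 in the dense bins and 17 on the other sequence; they are noted here because they carry a signal outside the comparisons above.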

How the results depend on the processing

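Of 96 alternative values, 74 stayed within the 95% interval of the reported value (for counts, within 1.5 times it), 22 did not, and none reversed a difference whose interval excluded 0. With an overlap of at least 1 bp in place of a distance, endogenous-only peaks numbered 5564, of which 53.954% were lone (12.829 points above the rest), with a median spacing of 39.25 bp; they marked 33 pluripotency genes, and the share inside genes was 5.50 points above the rest. With Halo-Sox2 alone as the comparison 60.5% were lone. Leaving out bins with 5 or more peaks gave 69.7% lone, 23.3 points above the rest, and 12 pluripotency genes; leaving out no bin gave differences of 34.2 points for lone peaks and 6.50 for peaks inside genes. A pairing distance of 1000 bp gave 65.0% lone. Within 2 kb of a gene end were 11.4% (-0.679 points against the rest) and within 5 kb 21.8% (-1.61); ends of all annotated genes gave 12.4%, and bodies of all annotated genes 53.9%. Protein-coding genes with an endogenous-only peak numbered 2370 at 20 kb, 6289 at 100 kb and 2179 as nearest gene. The motif difference included 0 with bins of 5 or more peaks left out (-31.3 to 6.49), with 25 bp on either side (-27.9 to 1.95) and with each gene counted once, an alternative chosen after seeing the data. The causes were not tested. A stricter peak threshold was not run, since the lists hold no score. No paired analysis was possible because each form of Sox2 has 1 library.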

Other observations

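Small RNA genes held few endogenous-only peaks. Inside tRNA genes were 7 endogenous-only peaks and 9 near a Halo centre, and inside snRNA genes 1 and 9. Long non-coding RNA genes held 11.3% of endogenous-only peaks (10.3 to 12.5) and 10.1% of those near a Halo centre (9.06 to 11.2). One lone endogenous-only peak lay inside the hairpin of Mir1983, and another stood 111 bp from that of Mir5122. A lone peak stood 701 bp from the hairpin of Mir219a-2, whose product is known for its role in oligodendrocyte maturation, and a pair stood 1860 and 1879 bp from that of Mir181d.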
